A study of Mus musculus with 4 samples.

Results

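Principal 3 was the principal cell population of the mouse caput epididymis that held exactly 151 cells in the deposited cell annotation. All 151 cells came from the caput library. They made up 1.70% of the 8880 annotated cells and 3.82% of the 3956 principal cells, which the annotation divided into 15 populations. The label places these cells in caput segments 3 to 4, and the single-cell libraries hold no position below the level of the whole caput against which that could be checked. The tissue came from 4 adult male FVB/NJ mice of 10 to 12 weeks, with no genetic change and no treatment, whose 8 epididymides were cut into caput, corpus, cauda and vas deferens and pooled by region into 1 single-cell library each, after steps that depleted sperm. With 1 library per region there is no replicate of any population, so no test between populations was possible and each comparison below describes these libraries.

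The epididymis is the long coiled duct in which sperm leaving the testis mature. Principal cells are its main secretory and absorptive epithelial cells, and along the duct they release changing sets of beta-defensins, lipocalins, cystatins, protease inhibitors and antioxidant enzymes into the lumen, where these proteins meet the sperm surface. The genes for these proteins often lie in families of tandem copies, and neighbouring copies are switched on in different parts of the duct.

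A level is given here as the molecules of a gene, counted by unique molecular identifiers (UMIs), per 1000000 UMIs summed over the cells of a population. The libraries were read from the 3′ end, so 1 molecule gives 1 UMI whatever its length, and levels were not divided by length. Brackets after a level or a ratio hold 95% exact Poisson or binomial intervals, which cover counting error only. To count genes, a population with fewer than 3 UMIs of a gene was set at a floor of 3 UMIs. A ratio printed against a population with no UMI uses the same floor and is a lower bound. The populations were cut from these same counts by the study, so a gene that stands out in principal 3 describes the population and is not independent support for it.

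The 4 libraries held 1433 to 3506 cells, and 43 barcodes occurred in more than 1 library, 3 of them in cells of principal 3. Principal 3 made up 20.5% of the 736 caput principal cells (17.7 to 23.6%, Clopper-Pearson). It was shallow, with 166278 UMIs in all and a median of 565 UMIs per cell (206 to 7602), against 1613 in principal 1, 924 in principal 2, 1180 in principal 4 and 721 in principal 5. The share depended on depth. Principal 3 was 13.2% of the caput principal cells with at least 1000 UMIs (45 of 342) and 26.9% of those with fewer (106 of 394). The 45 deeper cells gave 69.7% of the UMIs of the population. The removal of ambient RNA by the authors took 11.6% of the UMIs of principal 3, the highest share of the 15 populations. Within the cells of at least 1000 UMIs it took 5.35%, against 2.38% in principal 1 and 5.02% in principal 4.

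Principal 1 (144 cells) and principal 2 (353 cells) also came from the caput library alone. Principal 4 had 74 cells, 19 from the caput and 55 from the corpus, and principal 5 had 239 cells, 67 from the caput and 172 from the corpus. These 4 populations are the comparisons used below. Since principal 4 and 5 mix 2 libraries, values against their caput cells alone, which share the library of principal 3, are given beside the pooled ones for the genes with the largest ratios and for some families. The caput cells of principal 4 held only 23080 UMIs.

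Of the 3 genes given as markers, 1 was highest in principal 3. Defb15, a beta-defensin of chromosome 8, stood at 5683 (5327 to 6057) in principal 3, at 11.8 in principal 1, 457 in principal 2, 374 in principal 4 and 689 in principal 5. Clu, which codes for the secreted chaperone clusterin, stood at 32879 in principal 3 and at 34463 in principal 4, with 596 in principal 1, 2962 in principal 2 and 12692 in principal 5. Defb30, a beta-defensin of chromosome 14, stood at 8564 in principal 3, below 29716 in principal 4 and 16170 in principal 5, and at 461 in principal 2. All 3 genes separated principal 3 from principal 1 and 2, and Defb15 alone separated it from principal 4 and 5 as well. Against the caput cells of principal 4 and 5, where Defb15 stood at 1127 and 1445, its ratio was 5.04 (3.42 to 7.76) and 3.93 (3.43 to 4.53).

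Defb15 was also the gene with the largest ratio to the next pooled population, while within the caput library Gm17727, described below, had a larger one. Its gene lies at chr8:21929813-21932710 of mm10 on the minus strand, in a cluster of beta-defensin genes. The 120 bases before its annotated start, chr8:21932711-21932830 (RefSeq annotation of GRCm38.p6, minus strand), are shown because this ratio was the largest among the pooled populations. Capitals mark the letters TATAAA of the TATA box core.
Defb15: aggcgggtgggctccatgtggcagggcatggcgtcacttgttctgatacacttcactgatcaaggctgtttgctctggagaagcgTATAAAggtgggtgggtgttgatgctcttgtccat
The TATAAA begins 35 bases before the start. Over 32817 promoters of the same length, 6.35% held TATAAA on either strand and 21.3% held CCAAT, which the Defb15 window did not. This match is letters in a window, and binding was not measured here.

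The transcriptome of principal 3 was concentrated in few genes. The single most abundant gene gave 9.76% of its UMIs, the leading 10 gave 37.3% and the leading 25 gave 46.2%. Gpx5, the secreted epididymal glutathione peroxidase, led at 97566 (96070 to 99079), 1.36 times principal 1 and 1.79 times principal 2. Spag11b, a defensin-like secreted peptide, followed at 75759, 1.24 times principal 1. These 2 genes together gave 17.3% of the UMIs of principal 3, against 13.3% in principal 1, 9.30% in principal 2, 0.347% in principal 4 and 0.205% in principal 5. The caput cells of principal 4 held more Gpx5 than its corpus cells, at 17158 and 10.9, and no UMI of Spag11b against 21.8, and Gpx5 was lower there than in principal 3 by 5.69 times (5.15 to 6.30) within the caput library, against 28.3 times in the pooled populations.

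The genes that followed came from several families and peaked in different populations. D730048I06Rik (Pate6 in RefSeq), a secreted three-finger protein of the Pate family, stood at 36860 in principal 3 and next highest in principal 10, at 14765. Lcn5, a lipocalin that carries retinoids, stood at 34358, between 2202 in principal 2 and 148338 in principal 4. The Kazal protease inhibitors Spink8 and Spink11 stood at 24291 and 23665, and both were higher in principal 4, at 84011 and 56494. Defb20 ran the other way, at 95126 in principal 1, 30898 in principal 2, 22492 in principal 3 and 835 in principal 4. Wfdc10, a whey acidic protein family inhibitor, stood at 14674 in principal 3 and at 13658 in principal 4.

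**Figure D1:**
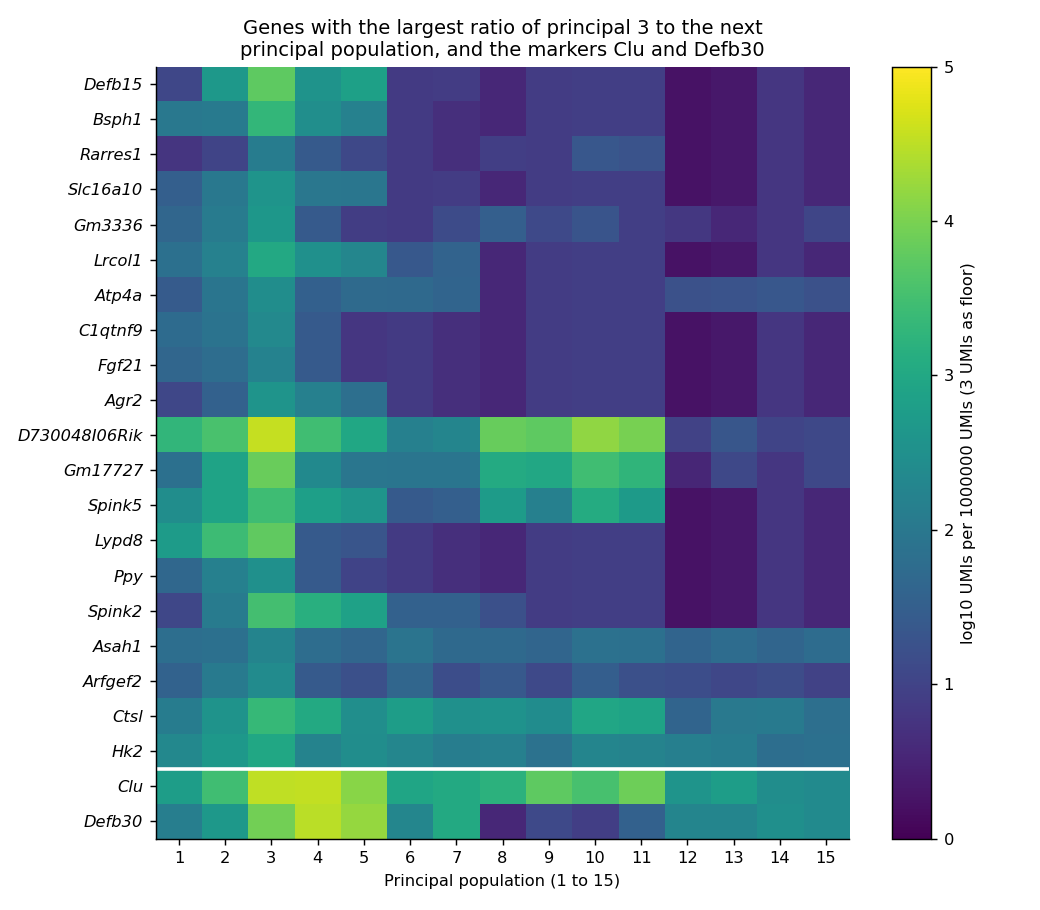
Levels (UMIs per 1000000, log10 colour scale) of the 20 genes with the largest ratio to the next population, and of Clu and Defb30, in the 15 principal populations. Defb15 is brightest in principal 3 (5683), while Clu and Defb30 are brightest in principal 4 (34463 and 29716).

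A group of 23 genes was at least 2 times higher in principal 3 than in every other principal population, which is 3.03% of the 758 genes that reached 20 UMIs in principal 3. Defb15 led with a ratio of 8.24 to principal 5, the next in order. Bsph1, a binder of sperm protein, stood at 2081 (1867 to 2312) in principal 3, at 102 in principal 1, 117 in principal 2, 296 in principal 4 and 157 in principal 5, a ratio of 7.04 (4.94 to 10.3) to the next. Set against the caput cells of principal 1, 2, 4 and 5 alone, 9 of the 23 genes remained at least 2 times higher in principal 3, counted with the floor. The ratio of Defb15 was then 3.93, that of Bsph1 1.72 (1.17 to 2.62), with 28 UMIs of Bsph1 in the caput cells of principal 4. The floor in those few cells is high, so genes at a low level in principal 3 could not remain, whatever their counts there. C1qtnf9, Fgf21 and Arfgef2 were lost although they had no UMI in the caput cells of principal 4. Without the floor their ratios to the next caput population were 2.88, 2.64 and 2.18. The drop to 9 is therefore in part set by the floor. Several members code for secreted or membrane-anchored proteins. Spink2, a Kazal inhibitor, stood at 3163 and at 1417 in principal 4, but at 4376 in the caput cells of principal 4, a ratio of 0.723 (0.583 to 0.904). Spink5, a longer Kazal inhibitor, stood at 2760 and at 1218 in principal 10, and at 2383 in the caput cells of principal 4. Lypd8, a membrane-anchored protein of the Ly6 family, stood at 6038 (5670 to 6423) and at 2702 in principal 2. Gm17727 (Pate7 in RefSeq), a second Pate gene, stood at 7289 and at 2932 in principal 10. Within the caput library the ratio to the next population was 9.10 (8.28 to 10.0) for Gm17727, 2.65 (2.37 to 2.97) for D730048I06Rik and 2.23 (2.07 to 2.41) for Lypd8.

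Other members act inside the cell or at its surface. Slc16a10, a transporter of aromatic amino acids, stood at 379 in principal 3 and at 99.5 in principal 2, a ratio of 3.81 (2.70 to 5.34). Agr2, a disulfide isomerase of the endoplasmic reticulum, stood at 385 and at 148 in principal 4, a ratio of 2.60 (1.51 to 4.74), and of 1.48 (0.644 to 4.18) to the caput cells of principal 4. Ctsl, the lysosomal protease cathepsin L, stood at 2231 and at 1078 in principal 4, and at 1993 in its caput cells. Hk2, a hexokinase, stood at 956 and at 467 in principal 2. Its levels were 561 and 399 in the cells with at least 1000 UMIs, a ratio of 1.41. In the cells with fewer they were 1865 and 1121, a ratio of 1.66. Several members rested on few molecules. Rarres1 had 21 UMIs in principal 3, a level of 126, and stood at 22.7 or less in the others. The hormone genes Fgf21 and Ppy had 27 and 55 UMIs, and the secreted protein gene C1qtnf9 had 38. Ppy fell below principal 1 in the cells with fewer than 1000 UMIs, at 79.4 against 135.9 (4 UMIs each), and Ppy and C1qtnf9 fell to ratios of 0.929 and 0.933 to the next population once cells with markers of other types were left out.

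The genes whose profile over the 15 principal populations was most like that of Defb15 were sought among 7436 genes, by Pearson correlation of log2 levels. Defb12, another beta-defensin of chromosome 8, came first (r = 0.98 over 15 populations) and stood at 421 in principal 3 and at 384 in principal 5. Agr2 and Slc16a10 followed (both r = 0.97), then Rnase13, a member of the RNase A family (r = 0.95), Bsph1 (r = 0.95), Gm266 (r = 0.94), Spink2 (r = 0.94) and the sialyltransferase gene St6gal1 (r = 0.93). These populations share libraries, so the correlations are descriptions. The St6gal1 level was highest in principal 5 (526) rather than in principal 3 (361).

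Genes entered a count if the higher population held 20 UMIs or more and its level was at least 4 times the floor of the other. Of genes with 20 UMIs, principal 1, 2 and 5 had 2577, 5111 and 3123. Those too low to reach 4 times the floor in principal 3 are left out of the totals, so the shares depend on depth. By this rule 130 of 1367 were at least 4 times lower in principal 3 than in principal 1 (9.51%) and 89 of 758 at least 4 times higher (11.7%). With cells that carried markers of other types left out, the counts were 25 and 55. This setting drops 86 of the 144 cells of principal 1 and 23 of the 151 of principal 3, and their UMIs with them. The number of genes that could still be called was not counted, so the fall is not a measure of RNA from other types. 9230104L09Rik (Cstdc2 in RefSeq), of the cystatin cluster, fell from 13000 to 126, or 103 times (67.3 to 166). 9230110F15Rik (Pate5 in RefSeq) fell from 5240 to 60.1. Defb47 fell from 52059 in principal 1 and 11819 in principal 2 to 607 (495 to 738). The lipocalin Lcn8 fell from 21169 and 10832 to 481 (382 to 599). Cst12, a cystatin, fell from 2505 to 54.1, Rnase10, of the RNase A family, from 1882 to 54.1, and the lysophospholipase gene Enpp2 from 821 to 24.1. The fall of Lcn8 was larger in the cells of principal 3 with at least 1000 UMIs, at a level of 147, than in the others, at 1250.

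Actg2, which codes for a smooth muscle actin, was the other gene lowest against principal 1, with no UMI in principal 3 against 849 in principal 1, at least 47.0 times lower. The other 7 muscle markers summed to a level of 72.5 in principal 1, 210 in principal 2 and 132 in principal 3, so they did not fall with Actg2 from principal 1. All 8 summed to 92533 in the muscle cells of all libraries. The part of muscle RNA in the differences from principal 1 and 2 was not tested.

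The genes that were higher than in principal 1 included several that were higher still in principal 4. Defb15 was 483 times higher (221 to 1320). Spink2, at 3163 against 11.8, and Gm6792 (Epp13 in RefSeq), at 5395 against 39.2, came next. Spink11 was 126 times higher (103 to 156), Rnase9 111 times (70.7 to 186), and Gm17727 106 times (76.0 to 153). Defb39 stood at 631 against 7.84. Serpina1f, a serpin gene, had 463 against no UMI, at least 78.7 times higher. All of these but Defb15, Spink2 and Gm17727 were higher still in principal 4, for example Gm6792 at 30899 and Rnase9 at 22578.

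Against principal 2, 44 of 758 genes were at least 4 times higher in principal 3 (5.80%), and 162 of 1904 genes were at least 4 times lower (8.51%). With cells that carried markers of other types left out, which drops 197 of the 353 cells of principal 2, the counts were 38 and 119. Gm6792 was 41.0 times higher (33.7 to 50.4), Spink2 26.7 times, Serpina1f 26.1 times, Rnase9 and Spink11 both 21.6 times, Defb30 18.6 times (16.6 to 20.8), Rnase13 18.3 times and Bsph1 17.7 times. Among the genes that were lower, Adam28, a membrane metalloprotease, fell from 1390 to 48.1, and 5830403L16Rik (Teddm2 in RefSeq) fell from 1121 to 30.1. The comparisons with principal 1 and 2 share the cells of principal 3. Of the 44 genes higher than in principal 2, 42 were also higher than in principal 1 (95.5% of the 44 and 47.2% of the 89), and of the lower genes 101 were shared (62.3% of the 162 and 77.7% of the 130).

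Against principal 4, 154 of 758 genes were at least 4 times higher in principal 3 (20.3%) and 36 of 388 at least 4 times lower (9.28%). Against its caput cells alone, 43 genes were higher and 10 lower. Those 19 cells hold few UMIs, so a gene needed a higher level to be called, and the number that could be called was not counted. The fall in these counts is therefore not a measure of the library. Spag11b had 12597 UMIs in principal 3 and stood at 17.4 in principal 4. Lypd8 had 2 UMIs in principal 4 and was 347 times higher in principal 3 (95.9 to 2871), and 69.7 times (19.2 to 576) against the same 2 UMIs in the caput cells. Defb18 was 80.7 times higher (42.3 to 177), Clpsl2, a colipase-like gene, 46.0 times, Defb45 36.9 times, Gm17727 31.1 times, and Gpx5 28.3 times (25.6 to 31.3). Against the caput cells of principal 4 the ratio was 24.3 (11.1 to 66.3) for Defb18, 11.2 for Clpsl2, 7.40 for Defb45 and 9.35 for Gm17727, so all of these kept their direction at a smaller size. Lcn6, a further lipocalin, stood at 2484 against 8.69, with no UMI in the caput cells of principal 4. The genes that were lower included defensins and a sperm-binding protein of the distal duct. Defb23 stood at 36.1 against 12180, Crisp1, which codes for a secreted protein that binds sperm, at 30.1 against 6721, and Defb28 at 24.1 against 5008. BC048679 had no UMI in principal 3 and was at least 98.8 times lower. Pate2 stood at 12.0 against 991, the phospholipase gene Pla2g7 had no UMI against 539, and the angiotensinogen gene Agt stood at 36.1 against 1017. In the caput cells of principal 4 Defb23 stood at 4116, Crisp1 at 477 and Defb28 at 2080, each above principal 3, and BC048679 stood at 867, Pate2 at 563, Pla2g7 at 390 and Agt at 823. For Crisp1 the difference was 15.8 times within the library against 223 times pooled.

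Principal 5 was compared in the same way, and 73 of 758 genes were at least 4 times higher in principal 3 (9.63%) and 209 of 1795 at least 4 times higher in principal 5 (11.6%). Against its caput cells alone these counts were 61 and 125, from 67 cells, and the number of genes that could be called was again not counted. Lypd8 was 293 times higher in principal 3 (158 to 612), Defb18 255 times (145 to 495), Spag11b 188 times (163 to 218), Lcn6 100 times, Gm17727 80.3 times and Gpx5 59.1 times (55.0 to 63.5). In the other direction BC048679 was at least 304 times higher in principal 5, Defb28 162 times, Defb23 96.2 times and Crisp1 83.0 times. Against the caput cells of principal 5 the ratio was 108 for Lypd8, 103 for Defb18, 74.2 for Lcn6, 36.3 for Gm17727 and 21.9 for Gpx5. Spag11b stood at 1082 there, Crisp1 at 602, Defb28 at 2956, Defb23 at 2543 and BC048679 at 3380. The comparisons with principal 4 and 5 shared 55 higher genes (35.7% of the 154 and 75.3% of the 73) and 19 lower genes (52.8% of the 36 and 9.09% of the 209). Principal 4 held 115021 UMIs, the fewest of the 5 populations, so that only 388 genes reached 20 UMIs in it.

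The median gene shifted between populations. Over genes with at least 20 UMIs in both, the median difference of principal 3 was 0.25 on the log2 scale from principal 1, -0.12 from principal 2, 0.03 from principal 4 and -0.12 from principal 5. Scaling by this median left each of the counts above within 1.5 times its value.

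**Figure D2:**
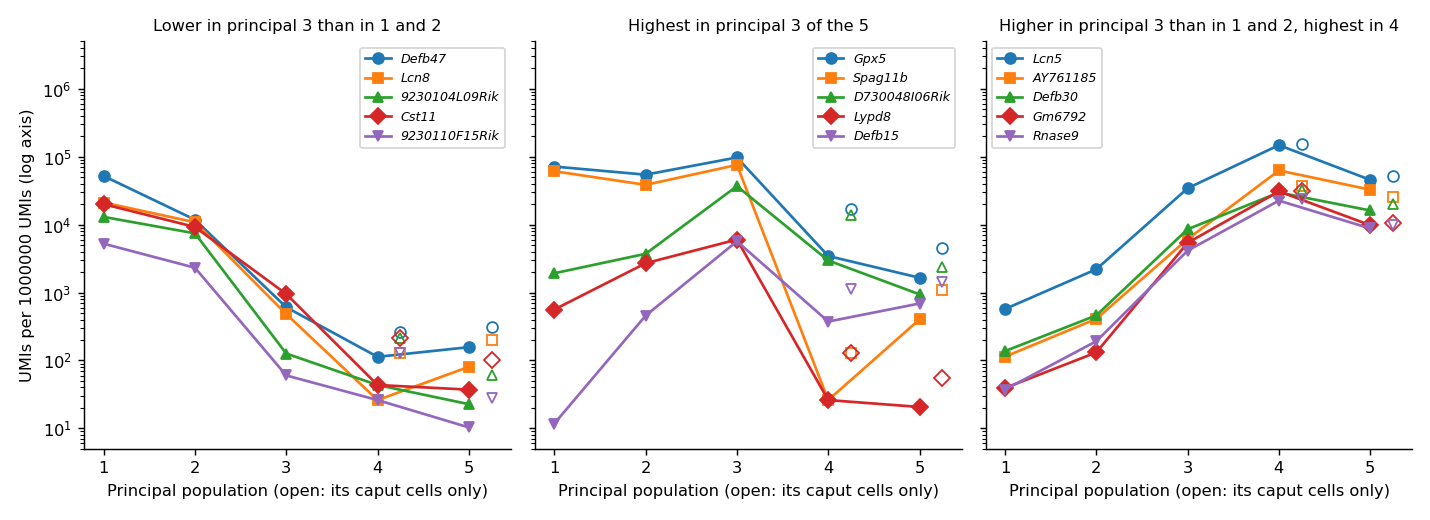
Levels (UMIs per 1000000, log axis) of 15 genes in principal 1 to 5, in 3 panels for genes that fell, genes highest in principal 3 of the 5, and genes highest in principal 4, with open markers for the caput cells of principal 4 and 5 and levels under 3 UMIs drawn at that floor. Defb47 runs from 52059 to 607 between principal 1 and 3, Defb15 from 11.8 to 5683, and Lcn5 from 572 to 34358.

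Lists of genes chosen for the tissue were described by counts. Of 17 genes of the initial segment, 9 were at least 4 times lower in principal 3 than in principal 1 and 9 than in principal 2, with none at least 4 times higher in either, and the medians were -2.58 and -2.32 on the log2 scale beside -0.26 and -0.53 over all genes compared. Against principal 4 and 5, in which 11 and 12 of the 17 could be compared, 8 were at least 4 times higher and 1 lower, with medians of 3.25 and 3.85 beside 0.75 and -0.68. Defb42 was a member with a small difference, at 5749 in principal 3 beside 6986 in principal 1 and 7329 in principal 4. Of 16 genes of the distal caput and corpus, 7 could be compared with principal 1, of which 6 were at least 4 times higher and none lower, with a median of 4.24 beside -0.26 over all genes. With principal 4, 11 could be compared, of which 7 were at least 4 times lower and none higher, with a median of -2.45 beside 0.75. Of 30 caput secreted genes, 8 were at least 4 times higher and 9 lower than in principal 1, and 8 higher and 3 lower than in principal 4, with medians of 0.69 and 0.39 beside the same -0.26 and 0.75. Lcn5 is in both of the last lists.

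Of 14 genes of luminal signalling through ERK, a kinase pathway that factors from the testis drive in the initial segment, 4 and 7 had enough UMIs to compare with principal 1 and 2. Against principal 1, 1 was higher, by at least 4 times, and 3 were lower, 2 of them by at least 4 times. Against principal 2, 1 was higher and 6 were lower, 3 of them by at least 4 times. Over all genes 1604 of 2625 and 3885 of 5116 were lower. The transcription factor Cebpb stood at 96.2 in principal 3 (55.0 to 156) beside 427 in principal 1, 604 in principal 2 and 270 in principal 4. Etv5, a target of the pathway, had 3 UMIs in principal 3, and Etv4 had none. Srd5a2, the steroid 5 alpha-reductase gene, stood at 138 in principal 3, 151 in principal 1 and 304 in principal 4.

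The endoplasmic reticulum and secretory genes leaned upwards. Of 28 genes, 21 had a higher level in principal 3 than in principal 1 and 20 than in principal 2, with medians of 0.55 and 0.52 on the log2 scale beside -0.26 and -0.53 over all genes. No gene of the 28 was at least 4 times higher than in principal 1 and 1 was against principal 2, while 2 were at least 4 times lower in each comparison. Manf, a protein retained in the endoplasmic reticulum, stood at 3073 in principal 3, 929 in principal 1, 744 in principal 2, 4295 in principal 4 and 1164 in principal 5. The chaperone Hspa5 stood at 5455 in principal 3, 3029 in principal 1 and 3112 in principal 2. Dnajb9, a partner of Hspa5, stood at 1534, 390 and 485 in the same 3 populations, and the disulfide isomerase Pdia6 at 2183, 784 and 813. Ddit3, a transcription factor of the stress branch of the same response, did not follow, at 223 in principal 3 against 1300 and 1439. Against principal 4, 17 of the 25 genes compared had a lower level in principal 3, beside 224 of 804 over all genes. The medians were -0.38 and 0.75.

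Genes of the immediate early and heat shock list, which dissociation of tissue can induce, were lower in principal 3 than in principal 2 in 17 of 18 cases. Over all genes 3885 of 5116 were lower. The median of the list was -1.24 on the log2 scale beside -0.53 over all genes, although only 2 of its genes were at least 4 times lower. Jun stood at 992 in principal 3 and 2367 in principal 2, Fos at 289 and 913, and Hspa8 at 247 and 928. Against principal 4 the same list had a median of 0.35 beside 0.75 over all genes. Of 29 antioxidant genes, 17 could be compared with principal 1, of which 6 had a higher level and 11 a lower one, beside 1021 and 1604 of the 2625 genes compared, a like share. Gpx5 was one of those that were higher, as was Mgst1, a microsomal glutathione transferase, at 1257 against 402. Gpx4 stood at 96.2 against 321 and the thioredoxin gene Txn1 at 24.1 against 231. Of 21 genes of luminal transport, 4, 9, 3 and 6 could be compared with principal 1, 2, 4 and 5. Of these 3, 4, 2 and 2 had a higher level in principal 3. Over all genes 1021 of 2625, 1231 of 5116, 580 of 804 and 789 of 3159 did. Slc38a5, a glutamine transporter, was among the higher ones, at 4925 in principal 3, 2099 in principal 1, 3343 in principal 2, 330 in principal 4 and 250 in principal 5.

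By family, the beta-defensin, lipocalin, cystatin, RNase, Wfdc, Spink, Spint, serpin, Crisp and Spag11 genes together gave 26.3% of the UMIs of principal 3 (26.1 to 26.6%), against 32.2% in principal 1, 16.3% in principal 2, 44.8% in principal 4 and 17.3% in principal 5. The families did not run in parallel. Beta-defensins gave 17.4% of UMIs in principal 1, 6.77% in principal 2 and 5.82% in principal 3. Lipocalins gave 4.27% in principal 3, close to 4.23% in principal 1, but Lcn8 led in principal 1 and Lcn5 in principal 3. Cystatin genes fell from 2.74% in principal 1 and 1.47% in principal 2 to 0.258% in principal 3. Spink inhibitors rose from 0.418% and 0.522% to 5.85%, and reached 14.6% in principal 4. Over all cells, the Spag11 pair, at 7.75%, and the glutathione peroxidases, which are not in that sum, at 9.81%, had their highest share of all 15 populations in principal 3. Among principal 1 to 5, principal 3 took place 2 for both in the cells with fewer than 1000 UMIs. It also took place 2 for the peroxidases once cells with markers of other types were left out. In the caput cells of principal 4 the peroxidases gave 1.79% rather than the 0.456% of the whole population, and the Spag11 pair 2.06%.

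Ribosomal protein genes gave 6.09% of the UMIs of principal 3, against 9.34% in principal 1, 13.5% in principal 2, 2.21% in principal 4 and 16.1% in principal 5. The caput cells of principal 4 and 5 gave 2.38% and 16.2%. Of 80 such genes compared with principal 2, 79 had a lower level in principal 3, beside 3885 of 5116 over all genes, and of 74 compared with principal 4 all 74 had a higher level, beside 580 of 804. The share varied between cells, from 0 to 30.4% with a median of 3.38%. It was 6.43% in the cells with at least 1000 UMIs and 5.33% in the others, beside 14.1% and 7.71% in principal 2.

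**Figure D3:**
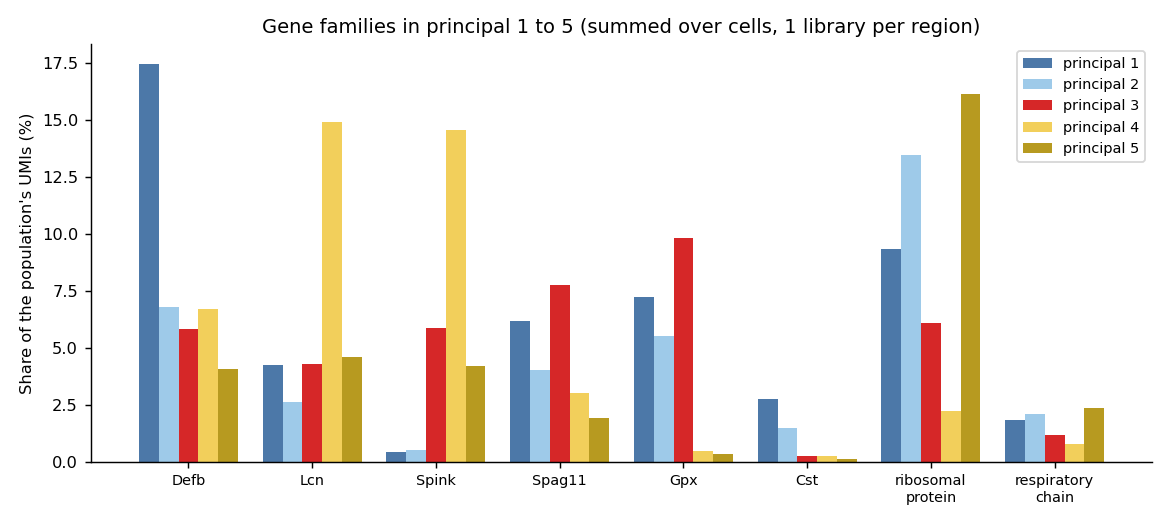
Share of UMIs (percent) by gene family in principal 1 to 5, with bars that start at 0. Principal 3 has the highest bars for Spag11 (7.75%) and Gpx (9.81%), and lies between principal 2 and principal 4 for Spink (5.85%).

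Neighbouring genes moved in opposite directions. The Pate cluster of chromosome 9 held the clearest case. Gm17727 (chr9:35776524-35778109) and D730048I06Rik (chr9:35788050-35790112) lie 9941 bases apart, and both were higher in principal 3 than in any other principal population, also within the caput library. 9230110F15Rik (chr9:35838329-35844150), a Pate gene farther along the chromosome, stood at 5240 in principal 1, 2318 in principal 2, 60.1 in principal 3, no UMI in principal 4 and 10.3 in principal 5. D730048I06Rik ran from 1923 in principal 1 and 3721 in principal 2 to 36860 in principal 3, then to 2965 and 941 in principal 4 and 5, and 13908 and 2354 in the caput cells of these. Gm17727 ran from 68.6 and 801 to 7289, then to 235 and 90.8, and 780 and 201 in the caput cells of these. Outside the caput both rose again in principal 10, to 14765 and 2932. The other Pate genes were low in principal 3, with 1 UMI each for Gm17677 and Gm17252 and 2 for Pate2. The 120 bases before the annotated starts of the 3 neighbours (GRCm38.p6, minus strand, chr9:35790113-35790232, chr9:35778110-35778229 and chr9:35844151-35844270 in the order shown) are given because these genes share a cluster and ran in opposite directions.
D730048I06Rik: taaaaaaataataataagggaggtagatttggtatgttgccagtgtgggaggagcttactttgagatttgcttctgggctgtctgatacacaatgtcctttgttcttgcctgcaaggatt
Gm17727: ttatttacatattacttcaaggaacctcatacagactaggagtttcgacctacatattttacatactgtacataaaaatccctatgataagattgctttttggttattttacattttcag
9230110F15Rik: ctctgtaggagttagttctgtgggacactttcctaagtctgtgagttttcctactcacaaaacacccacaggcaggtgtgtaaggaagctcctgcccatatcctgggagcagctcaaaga
None of these windows held TATAAA or CCAAT on either strand.

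**Figure D4:**
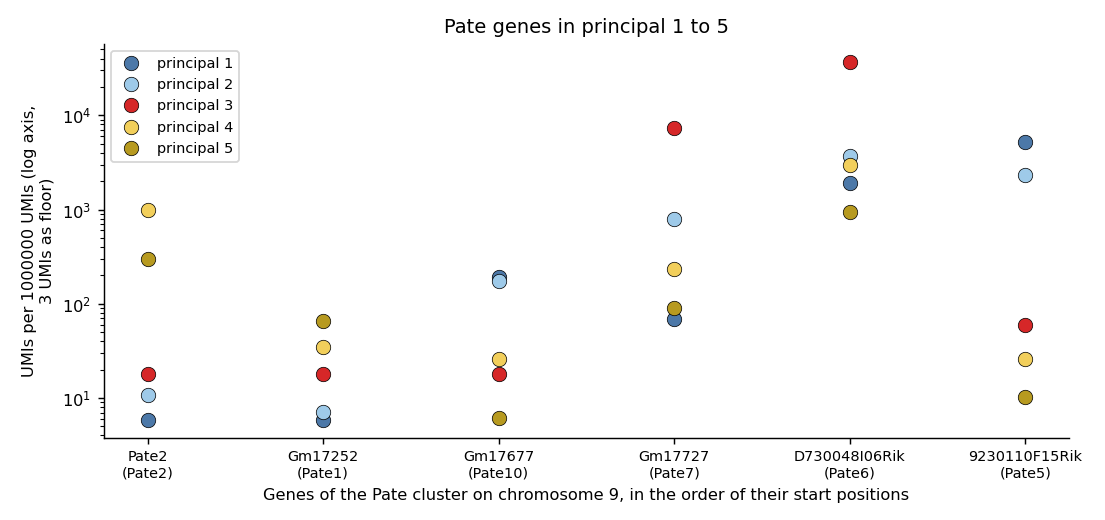
Levels (UMIs per 1000000, log axis) of 6 Pate genes in principal 1 to 5, all libraries of a population pooled and levels under 3 UMIs drawn at that floor. D730048I06Rik and Gm17727 peak in principal 3 (36860 and 7289), while 9230110F15Rik falls from 5240 in principal 1 to 60.1 there.

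The lipocalin cluster of chromosome 2 changed over between principal 2 and principal 4. Lcn8 (chr2:25653118-25656217) and Lcn5 (chr2:25657932-25662230) are neighbours. Lcn8 fell from 21169 to 10832, 481 and 17.4 over principal 1 to 4, while Lcn5 rose from 572 to 2202, 34358 and 148338. Lcn9 fell with Lcn8, from 4344 in principal 1 to 180 in principal 3, and Lcn10 fell from 1370 to 253. Lcn12 was highest in principal 3, at 914 (775 to 1072), against 509 in principal 2, 139 in principal 4 and 477 in the caput cells of principal 4. Ptgds, a lipocalin-type prostaglandin synthase of the same cluster, was higher in principal 3 than in principal 1 (363) and principal 4 (2843).

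The cystatin genes of chromosome 2 fell as a block, apart from Cst3. Cst11 ran from 20014 in principal 1 to 9243 in principal 2 and 950 in principal 3, and Cst8 from 2999 to 1429 and 102. Cst3, a cystatin made in most tissues, stood at 1437, 1136 and 1167 in the same 3 populations. In the defensin cluster of chromosome 14, Defb48 fell from 2931 in principal 2 to 126 in principal 3 and Defb47 from 11819 to 607, while Defb30 rose from 461 to 8564 and Defb42, next to it, stayed between 5749 and 7329 over principal 1 to 5. In the defensin cluster of the distal part of chromosome 2, Defb25 fell from 4264 in principal 2 to 289 in principal 3, Defb21 rose from 99.5 to 950 and Defb29 from 134 to 397, and Defb23 and Defb28 stood at 36.1 and 24.1 before their rise in principal 4. In the chromosome 8 cluster Defb15 stood alone in size, and Defb13, near it, reached 120 in principal 3 beside 103 in principal 5. Reads that mapped to more than 1 place were not counted by the authors, so near-identical copies in these families may be undercounted.

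Shares of cells were compared after each cell was thinned to 400 UMIs, which kept 100 of the 151 cells of principal 3 and left out 51. Defb15 was found in 53.0% of the thinned cells (42.8 to 63.1%), against 0 of 114 in principal 1 (up to 2.63% by the floor of 3 and 3.18% by Clopper-Pearson, with 2 of 144 before thinning), 7.32% in principal 2, 9.38% in principal 4 and 12.1% in principal 5. Caput basal cells, which should lack the gene and had a median of 5526 UMIs before thinning, showed it in 1.03%. Without thinning, 70 of 151 cells of principal 3 had a UMI of Defb15 (46.4%), 34 of the 45 deeper cells and 36 of the 106 others. D730048I06Rik was found in 98.0% of thinned cells (93.0 to 99.8%), against 14.9% in principal 1, 39.4% in principal 2, 14.1% in principal 4 and 2.74% in basal cells. Clu was found in 97.0%, but also in all 64 thinned cells of principal 4, 92 of 246 of principal 2 and 64.0% of basal cells. Its presence in a cell thus does not by itself mark principal 3. Gpx5 was found in all 100, but also in all 114 thinned cells of principal 1 and 238 of 246 of principal 2. It was found in 9.38% in principal 4 and 19.5% in basal cells. Bsph1 was found in 34.0% (24.8 to 44.2%), against at most 4.69% in principal 1, 2, 4 and 5, and in 0 of 292 basal cells (up to 1.03% by the floor of 3 and 1.26% by Clopper-Pearson, with 1 of 300 before thinning).

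The cells of principal 3 were not alike. Lypd8 was found in 59.0% of thinned cells and Defb30 in 42.0%, and they were mostly not the same cells. This pair, and the division of cells that follows, were chosen after their values were seen. Of the 100 thinned cells, 52 had UMIs of Lypd8 only, 35 of Defb30 only, 7 of both and 6 of neither. Of the 45 cells with at least 1000 UMIs, not thinned, 23 had Lypd8 only, 16 Defb30 only, 6 both and none had neither. In principal 2, 68 of 246 thinned cells had Lypd8 only, 19 Defb30 only, 5 both and 154 neither, and in principal 4, 63 of 64 had Defb30 only and 1 neither. Of the 168 cells of principal 2 with at least 1000 UMIs, not thinned, 75 had Lypd8 only, 9 Defb30 only, 21 both and 63 neither. Most of the deeper Defb30 cells of principal 2 thus also held Lypd8. With cells that carried markers of other types left out, 6 of 78 thinned cells of principal 3 held both. Other pairs differed in overlap in the 45 deeper cells. Gpx5 and Clu were together in all 45, Defb20 and Lcn5 in 40, Lypd8 and Defb18 in 27, Defb30 and Gm6792 in 20, Lcn6 and AY761185 in 14, Defb18 and Rnase9 in 11, and Lypd8 and Gm6792 in 8. No cell of principal 3 was called a doublet. The call took a set number of 16 caput cells and recovered 44.4% of simulated pairs of 2 cell types. How well it finds pairs of 2 principal cells was not assessed, so it does not clear the cells that held both genes.

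**Figure D5:**
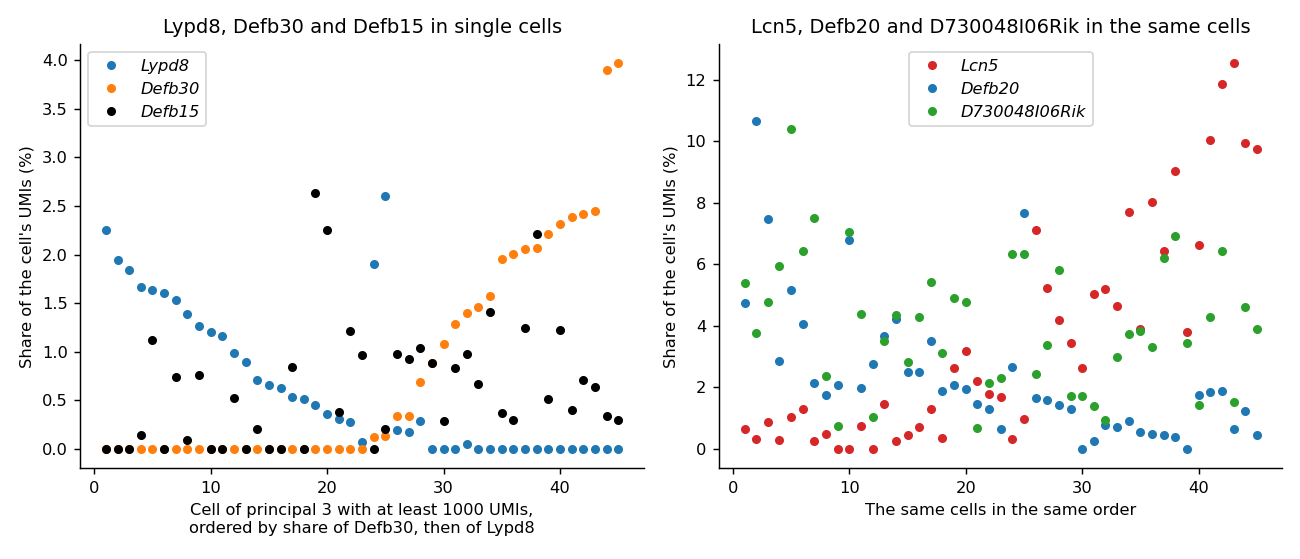
Shares of UMIs (percent) of 6 genes in the 45 cells of principal 3 with at least 1000 UMIs, each point a cell, ordered by Defb30 and then by Lypd8. Lypd8 is present in 29 cells and Defb30 in 22, with 6 in common, while D730048I06Rik is present in all 45.

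The 23 cells with Lypd8 only held 47287 UMIs (median 1713 per cell) and the 16 cells with Defb30 only held 45550 (median 1993.5). Among the 45 cells Lypd8 took 0 to 2.60% of the UMIs with a median of 0.305%, and Defb30 0 to 3.97% with a median of 0. Among genes that reached 20 UMIs on the higher side, 19 of 207 were at least 4 times higher in the Lypd8 cells (9.18%) and 32 of 229 at least 4 times higher in the Defb30 cells (14%). These counts include the 2 genes that defined the sides. The median of the 155 genes with 20 UMIs on both sides was -0.26 on the log2 scale for Lypd8 over Defb30 cells.

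Some genes that stood higher in principal 2 than in principal 4 were higher in the Lypd8 cells, and others were not. Defb20 stood at 36120 in them and at 7267 in the Defb30 cells, 4.97 times higher (4.42 to 5.61), and at 30898 in principal 2. Defb18 stood at 11525 and 1251, 9.21 times higher, and at 2944 in principal 2. Gm17727 stood at 11673 and 1669, 7.00 times higher (5.50 to 9.01). Lcn6 was 5.36 times higher and Cst11 12.9 times (5.26 to 41.0), both low in principal 4. Spag11b stood at 107810 and 33897, and Gpx5 at 106985 and 73216. Defb45 and Clpsl2, also higher in principal 2 than in principal 4, had ratios of 0.963 and 1.05 between the sides. Defb42 went the other way, at 4864 in the Lypd8 cells and 7925 in the Defb30 cells.

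Some genes that were high in principal 4 were higher in the Defb30 cells, and others were not. Rnase9 stood at 9484 in them and at 169 in the Lypd8 cells, 56.1 times higher (28.2 to 131). AY761185, a defensin-like gene, stood at 14797 and 423, 35.0 times higher, and at 62823 in principal 4. Gm6792 stood at 12294 and 613, Spink2 was 10.7 times higher, and Lcn5, at 71789 and 8184, 8.77 times (7.89 to 9.77). Defb21 and Defb39 had 108 and 75 UMIs in the Defb30 cells and none in the Lypd8 cells. Defb23 and Defb28, at 12180 and 5008 in principal 4, had no UMI in the Defb30 cells, and Wfdc10, at 13658 there, was 2.25 times higher in the Lypd8 cells. Ribosomal protein genes gave 8.53% of the UMIs of the Defb30 cells and 4.10% of those of the Lypd8 cells, and ambient removal took 4.85% and 6.62%. The part of these 2 differences in the rest was not tested.

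Some genes were high on both sides. D730048I06Rik stood at 43183 in the Lypd8 cells and at 37146 in the Defb30 cells, beside 3721 in principal 2 and 2965 in principal 4. Defb15 stood at 4441 in the Lypd8 cells, with a UMI in 13 of 23, and at 8145 in the Defb30 cells, with a UMI in 16 of 16, beside 457 in principal 2 and 374 in principal 4. Bsph1 stood at 1163 and 3732, beside 117 and 296. In the caput cells of principal 4, D730048I06Rik stood at 13908, Defb15 at 1127 and Bsph1 at 1213. Clu stood at 26730 and 39539, against 2962 in principal 2 and 34463 in principal 4. Defb15 and D730048I06Rik were above principal 2 and principal 4 on each side, also within the caput library, and Bsph1 was above its caput level in principal 4 only in the Defb30 cells.

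Over the 45 cells, Spearman's rho of shares of UMIs was -0.81 between Lypd8 and Defb30, 0.88 between Lypd8 and Defb20, and 0.89 between Defb30 and AY761185. Defb15 had a rho of -0.50 with Lypd8 and 0.31 with Defb30. These values describe cells of 1 library that share its depth and ambient RNA, and the rho with the UMIs of a cell was -0.10 for Lypd8 and 0.30 for Defb30.

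Markers of other cell types were low in principal 3 beside the cell types they mark. The 10 basal markers summed to 19 UMIs, a level of 114 beside 7252 in caput basal cells, with 3 of the 10 at 0. The 10 clear cell markers stood at 271 beside 34456 in caput clear cells, the 10 stromal markers at 126 beside 10039, the 8 endothelial markers at 66.2 beside 5444 and the 10 immune markers at 90.2 beside 20151. Immune markers were higher than in principal 1, 2, 4 and 5 (3.92, 8.29, 0 and 8.26), with 12 of the 15 UMIs in 1 cell. Clear cell markers stood at 129, 285, 130 and 497 in those populations, and 1 cell of principal 3 held 11 of its 45 UMIs. Basal markers were lower than in each of those populations, and the other lists lay within their range. Of the 151 cells, 23 held 2 or more UMIs of such markers, against 86 of 144 in principal 1, 197 of 353 in principal 2, 20 of 74 in principal 4 and 83 of 239 in principal 5. These cells were not thinned, and the median was 565 UMIs in principal 3 against 1613, 924, 1180 and 721 in the others. The counts therefore do not show that principal 3 held less RNA of other types.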

How the data were processed

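Single-cell RNA was measured by the authors with 3′ droplet libraries (10x Genomics), 1 each for caput, corpus, cauda and vas deferens. The authors deposited counts, that is whole numbers of UMIs per gene and cell, for 16892 genes and 8880 cells, with a population name per cell. According to the submitters' processing notes and the study's methods, reads were demultiplexed with bcl2fastq, aligned to mm10 with HISAT2 version 2.0.4 and counted per RefSeq gene with ESAT, reads that map to several places were ignored, and ambient RNA was taken away per cell with a modified SoupX, which can lower the counts of genes abundant in a library. Populations came from iterative clustering of these counts by the authors.

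From these counts, UMIs were summed over the cells of a population and divided by its total. Levels carry 95% exact Poisson intervals, shares Clopper-Pearson intervals, and ratios intervals from the conditional binomial, all for counting error only. For the counts at 4 times, a gene needed at least 20 UMIs in the higher population. Its level there also had to reach 4 times the floor of 3 UMIs in the lower one. It was counted as higher or lower at 4 times or more. For the medians and levels of gene lists, a gene was compared if either population held 20 UMIs. The settings were 400 UMIs for thinning (random seed 1) and 1000 UMIs for deeper cells. The genes named were the 25 of highest level, the 20 with the largest ratio to the next population, the 8 of largest ratio in each direction against principal 1, 2, 4 and 5, the leading members of gene lists and families, and the 8 whose profile was most like that of Defb15. Genes named only for their place beside these on a chromosome, or for differing between cells of principal 3, were chosen after their values were seen. The members and lists were chosen with earlier results of these data known. Caput doublets were called by similarity to simulated pairs of cells (16 of 1433, or 1.12%, a number set by the size of the library, none in principal 3). No columns of cells were left unmapped.

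Positions and promoters came from RefSeq (GRCm38.p6), and 32 of the 41 genes looked up had a promoter. The code was tested on simulated data. The software was matplotlib 3.10.9, scikit-learn 1.9.0, scipy 1.17.1, numpy 2.4.6 and pandas 2.3.3 under Python 3.11.15. Mitochondrial genes are not in the matrix, and the bulk libraries of the study were not analysed here.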

Additional observations from a re-analysis of the deposited data

How the results depend on the processing

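With 1 library per region no replicate could be left out, and intervals cover counting error only, so the depth of 166278 UMIs sets which genes of principal 3 could be compared. No paired analysis was possible because each region has 1 library and no test was made. Of 120 values of the main results under other settings, 72 stayed the same and 48 moved, and of 506 values for single genes, families and shares, 271 stayed the same, 232 moved and 3 reversed. The cause was not tested unless the setting itself, by keeping fewer genes or cells, sets the number.

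With a minimum of 10 UMIs, 165 genes were at least 4 times higher in principal 3 than in principal 1, 131 than in principal 5, 57 were lower than in principal 4 and 35 were at least 2 times every other population. With 50 UMIs, 55, 59 and 40 genes were higher than in principal 1, 4 and 5. In the cells with fewer than 1000 UMIs, the genes higher than in principal 1, 2, 4 and 5 numbered 43, 25, 48 and 38, the lower ones 17, 60, 20 and 70, and 11 were above every other population. With cells that held markers of other types left out, 55 genes were higher and 25 lower than in principal 1, and 11 were above every other population. At 2 times, 223, 141, 349 and 179 genes were higher than in principal 1, 2, 4 and 5 and 606, 1250, 80 and 1176 lower. At 8 times, 48, 22, 41 and 44 were higher and 34, 35, 22 and 28 lower. At 4 times, 3 genes were above every other population. Without the 20 most abundant genes in the denominator, 97 and 131 genes were lower than in principal 2 and 5. With caput cells only, 43 genes were higher and 10 lower than in principal 4, 125 lower than in principal 5 and 13 above every other population.

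The share of UMIs of secreted families was 27.6% in cells with at least 1000 UMIs, 23.4% in the others, 26.6% without cells holding markers of other types, 24.3% as a mean over cells and 38.2% of the UMIs without the 20 most abundant genes. The share of cells with Defb15 was 71.1% when thinned to 1000 UMIs. The level of Ppy fell below the next population in cells with fewer than 1000 UMIs (0.584 of principal 1, or 0.499 of the floor of 3 UMIs in principal 4) and without cells holding markers of other types (0.929), as did C1qtnf9 in the latter (0.933). Of 96 places of a family among principal 1 to 5, 72 were unchanged. The alternatives for cells with both Lypd8 and Defb30 were chosen after seeing the data, and gave 6 of 45 deeper cells, 10 of 118 cells thinned to 300 UMIs, 6 of 45 thinned to 1000 and 6 of 78 without cells holding markers of other types. The caput-only values of single genes and families were also chosen after seeing the data. For the 20 genes with the largest ratio to the next population, 8 such ratios stayed within the counting interval, 11 moved and 1 reversed, Spink2 to 0.723.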
